A study of Mus musculus with 2 samples.

Results

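The suppressors of cytokine signalling form a family of 8 mouse genes, Socs1 to Socs7 and Cish, and all 8 were found by symbol among the 55536 genes of the deposited tables. Symbols came from the transcript names of the kallisto tables and were joined to the RSEM tables by gene ID. RNA was sequenced from the nucleoplasm of primary C57BL/6J macrophages grown from bone marrow, after depletion of ribosomal RNA. The cells had received lipid A, the membrane anchor of bacterial lipopolysaccharide that activates TLR4, at 100 ng/ml for 12 h. They were then washed, left for 12 h and given 100 ng/ml lipid A again for 90 min before harvest. Both libraries belong to this single group, so levels and their spread (n = 2) are given and no test between conditions was possible. Untreated cells, cells treated once and other cell fractions were not analysed here. The labels number the libraries as biological replicates 1 and 2 but do not separate them by animal, give the same donor entry for both, and record neither age nor sex.

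SOCS proteins end cytokine signals. Cytokine receptors activate JAK kinases, which phosphorylate the receptor and STAT transcription factors, and STATs switch on SOCS genes. A SOCS protein binds phosphotyrosine through its SH2 domain, and its SOCS box recruits elongins B and C and a cullin to mark bound proteins with ubiquitin, while SOCS1 and SOCS3 also block JAK activity directly. In macrophages SOCS1 is best known for limiting interferon signals and SOCS3 for limiting signals through the IL-6 receptor subunit gp130.

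The promoter letters of 3 members are shown first, because a STAT-type or interferon-type motif was found in them among the 4 members with a promoter window. They include the 2 members furthest below replicate 1 in replicate 2 (Socs1 and Socs3, with Socs2 close to Socs3) and the one furthest above it (Cish). Socs2, Socs5, Socs6 and Socs7 had no window, so their motifs are unknown. Any link between motifs and these ratios was not tested. RefSeq promoter windows (GRCm38.p6, the assembly that mm10 names; 250 bases before to 50 after a start) were held for 4 of 8 members: Socs1, Socs3, Socs4 and Cish. Runs are 5′ to 3′ on the gene's strand, and capitals mark motif matches. The Socs1 run is chr16:10785537-10785786 on the minus strand, ending at the base before the annotated start, and its capitals are overlapping matches to the interferon-stimulated response element (ISRE; GAAA, any 2 bases and GAAA). The Socs3 run is chr11:117969367-117969616 on the minus strand, before a RefSeq start that lies upstream of the first exon of Socs3-201 in GENCODE, with TTCNNNGAA, the STAT-binding GAS motif, in capitals. Part of it is an exon of the non-coding transcript Socs3-203. For Cish only the site is printed, chr9:107296656-107296681 on the plus strand, in the first exon of Cish-201, with 2 GAS matches in capitals.
Socs1: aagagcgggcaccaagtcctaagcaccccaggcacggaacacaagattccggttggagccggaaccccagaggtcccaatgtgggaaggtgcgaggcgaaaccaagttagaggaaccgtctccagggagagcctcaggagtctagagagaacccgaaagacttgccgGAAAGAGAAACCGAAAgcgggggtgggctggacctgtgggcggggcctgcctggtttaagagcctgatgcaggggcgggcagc
Socs3: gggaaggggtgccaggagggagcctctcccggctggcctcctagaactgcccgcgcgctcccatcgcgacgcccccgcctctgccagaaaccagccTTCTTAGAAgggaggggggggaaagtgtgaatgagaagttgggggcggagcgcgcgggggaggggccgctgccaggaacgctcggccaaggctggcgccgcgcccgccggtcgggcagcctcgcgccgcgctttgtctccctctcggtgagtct
Cish: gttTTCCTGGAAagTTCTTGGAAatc

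The searched motifs, on both strands, were TTCNNNGAA (GAS), the STAT6 type with 4 instead of 3 free bases, ISRE, NF-kB in a long form (GGGA, any 2 bases and TTCC) and as GGGNNTTCC, TGACGTCA (CRE) and TGANTCA (AP-1). Each position was counted once over both strands. The 2 Cish matches begin at the RefSeq start and 11 bases after it, and the Socs3 match begins 154 bases before its start. GAS was present at least once in 8.3% of 32851 windows of the same length and at least 2 times in 0.457%. The Socs1 matches begin 83 and 77 bases before the start, share bases, and ISRE was present in 3.44% of windows, with 0.225% holding 2 or more. The Socs4 window held none of the 7 motifs. These matches describe letters and not binding, which was not measured here.

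Socs3 held most of the family's RNA. Its RSEM level was 95.95 TPM (reads corrected for transcript length and scaled to a common total) in replicate 1 and 66.0 in replicate 2 (81.0 ± 21.2; SD, n = 2), from 10896 and 3974 expected counts. The gene (ENSMUSG00000053113.3, chromosome 11, 117966079 to 117970047, minus strand, mm10) stood at rank 360 of 22028 protein-coding genes, the 98.4th percentile. Every other member stayed under 10 TPM in both libraries, so Socs3 does not overlap them. Its mean was 10.9-fold that of Socs4, the next member, and 46.5-fold that of Socs1. Socs3 made up 81.8% of the family's summed TPM in replicate 1 and 72.6% in replicate 2. By kallisto these shares were 76.2% and 65.4%, and its mean TPM was 43.0-fold that of Socs1.

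**Figure D1:**
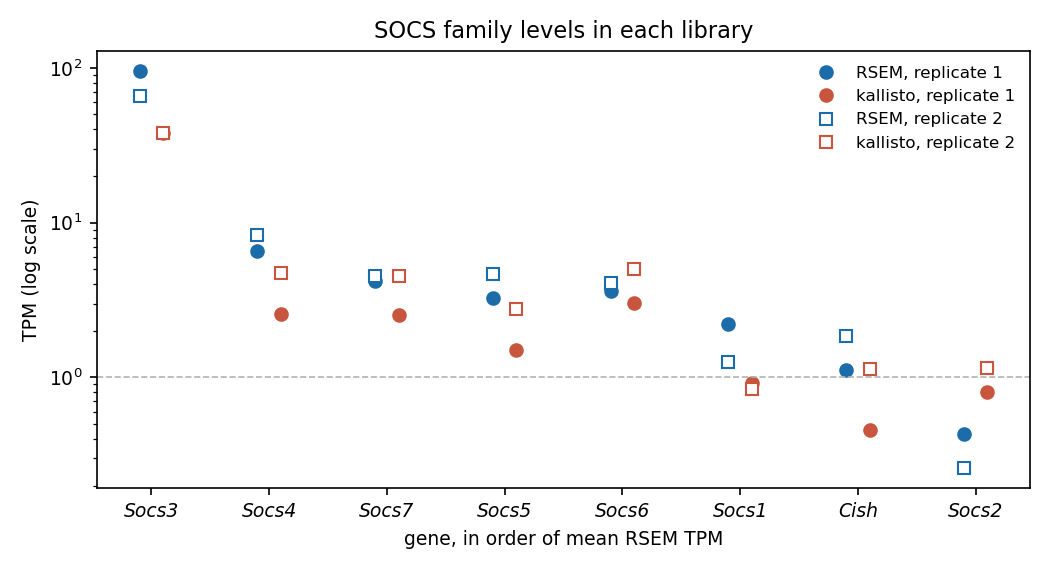
TPM on a log axis for the 8 SOCS family genes in each library, by RSEM (blue) and kallisto (red); filled circles are replicate 1, open squares replicate 2, and the dashed line is 1 TPM. Socs3 lies far above the others in both quantifications, whereas the order among the remaining genes differs between them.

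Socs1, the other kinase-blocking member, was present at a low level. It had 2.22 TPM in replicate 1 and 1.26 in replicate 2 (1.74 ± 0.679), from 281 and 85 counts (ENSMUSG00000038037.5, chromosome 16, 10782240 to 10785536, minus strand). Cish, the founding member and a known STAT5 target, had 1.12 and 1.85 TPM (1.49 ± 0.516), from 200 and 190 counts (ENSMUSG00000032578.7, chromosome 9, 107296026 to 107302784, plus strand). The libraries give opposite orders for these 2 genes: Socs1 was higher in replicate 1 and Cish in replicate 2. Socs2, a regulator of growth hormone signalling, was lowest, with 0.43 and 0.26 TPM (0.345 ± 0.120) from 36 and 13 counts (ENSMUSG00000020027.18, chromosome 10, 95385362 to 95417180, minus strand).

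The level of Socs2 depends on how its reads were assigned. Its deposited 95% credibility intervals, 0.628 to 1.58 TPM in replicate 1 and 0.677 to 2.22 in replicate 2, lie above its own TPM in both libraries, since they surround another estimate, the posterior mean of 1.08 and 1.40. Kallisto gave it 0.807 and 1.16 TPM from 151 and 154 counts. For Socs3 the intervals were narrow, 92.3 to 96.3 and 61.8 to 67.0 TPM, and did not overlap between libraries.

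The 4 members with long amino-terminal regions, Socs4 to Socs7, lay between these extremes. Socs4, a member linked to EGF receptor signalling, had 6.55 and 8.28 TPM (7.42 ± 1.22; ENSMUSG00000048379.9, chromosome 14, 47276931 to 47296102, plus strand) from 2132 and 1429 counts. Socs7, which is known to bind insulin receptor signalling proteins, had 4.17 and 4.50 TPM (4.34 ± 0.233; ENSMUSG00000038485.5, chromosome 11, 97362551 to 97398542, plus strand) from 1141 and 657 counts. Socs4 lay above Socs7 in both libraries, without overlap. Socs5, known to restrain IL-4 and EGF receptor signals, had 3.26 and 4.64 TPM (3.95 ± 0.976; ENSMUSG00000037104.9, chromosome 17, 87107679 to 87137839, plus strand) from 468 and 363 counts. Socs6, which is known to bind the KIT receptor, had 3.60 and 4.07 TPM (3.84 ± 0.332; ENSMUSG00000056153.15, chromosome 18, minus strand) from 642 and 485 counts. The library values of Socs5 span those of both Socs6 and Socs7, so Socs5 could not be ordered against either.

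From high to low by mean RSEM TPM the order was Socs3, Socs4, Socs7, Socs5, Socs6, Socs1, Cish and Socs2. Neighbours whose library values overlapped were Socs7 and Socs5, Socs5 and Socs6, and Socs1 and Cish. The remaining 4 steps separated the libraries fully, by 10.9-fold from Socs3 to Socs4, 1.71-fold to Socs7, 2.20-fold from Socs6 to Socs1 and 4.30-fold from Cish to Socs2. The kallisto order was Socs3, Socs6, Socs4, Socs7, Socs5, Socs2, Socs1 and Cish, and only the steps below Socs3 and below Socs5 separated the libraries. Within each library, however, kallisto placed Socs6 above Socs4, Socs4 above Socs7 and Socs7 above Socs5. The 3 lowest genes were the same in both orders: Socs1, Socs2 and Cish.

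A level of at least 1 TPM in both libraries was reached by 7 of 8 members in RSEM, Socs2 being the exception, where 38.6% of all protein-coding genes reached it. In kallisto 5 of 8 did (Socs3 to Socs7), against 37.4%. The family's median was 3.89 TPM beside 0.22 over all protein-coding genes and 7.06 over those with at least 1 TPM in both libraries. Protein-coding and long non-coding genes together held 24.7% of TPM in replicate 1 and 34.0% in replicate 2. With TPM rescaled over those genes alone, Socs3 had a mean of 290.8.

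Between the libraries the members did not move together. Ratios of replicate 2 over replicate 1 were computed from expected counts scaled by TMM, a normalization that assumes most genes are equal, and 95% intervals cover counting error only. Socs1 had the largest difference, a log2 ratio of -1.16 (interval -1.54 to -0.81). Socs3 followed at -0.90 (-0.95 to -0.85). Socs2 had -0.89, but its 36 and 13 counts leave an interval that includes 0 (-1.95 to 0.04). Socs1 and Socs3, which share the kinase inhibitory region, were both lower in replicate 2 by more than counting error.

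Cish lay on the other side, at 0.48 (0.19 to 0.78), higher in replicate 2. Socs7 was slightly lower, at -0.24 (-0.38 to -0.10). Socs4 at -0.02, Socs6 at 0.15 and Socs5 at 0.19 had intervals that include 0. Of the 8 members 5 had a ratio below 0 and 3 above, with a median of -0.13 where the median of all tested protein-coding genes was -0.05. The family median turned to 0.04 with library totals and 0.14 from deposited TPM, where those of protein-coding genes were 0.11 and 0.28.

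**Figure D2:**
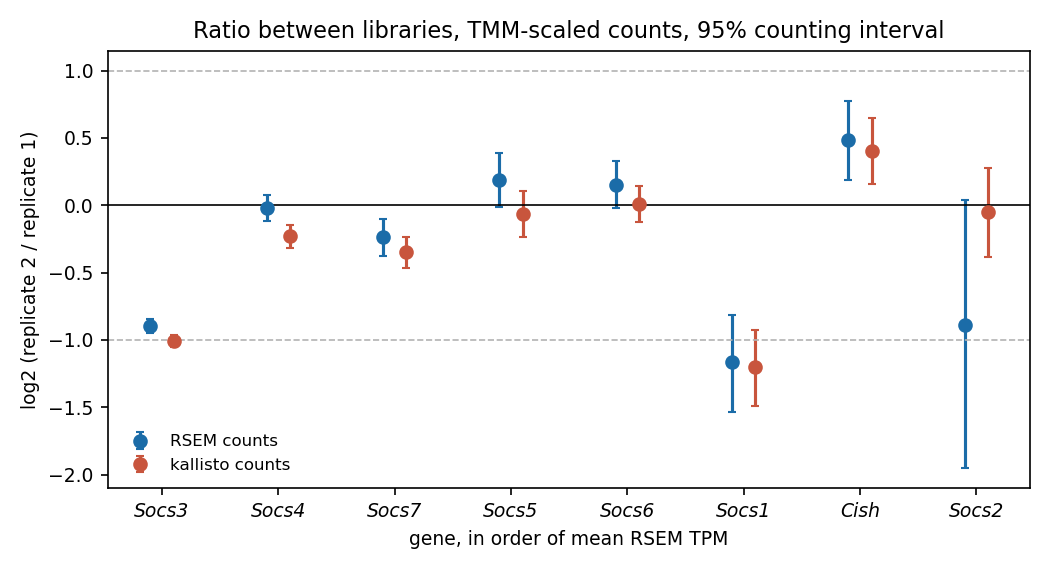
Log2 ratio of replicate 2 over replicate 1 for each SOCS family gene, from TMM-scaled RSEM (blue) and kallisto (red) counts; bars are 95% counting intervals and dashed lines mark 2-fold. Socs1 and Socs3 lie near or beyond 2-fold lower in both quantifications, Cish lies above 0 in both, and Socs2 differs most between them.

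A difference of more than 2-fold was counted as called. Socs1 alone passed it, 1 of 8 members, where 13.4% of the 14831 tested genes passed in either direction, 5.85% lower and 7.52% higher in replicate 2. Among protein-coding genes alone 8.75% passed, 5.01% lower. With so few members, 1 of 8 is close to the background. In kallisto Socs1 (-1.20) and Socs3 (-1.01) passed, 2 of 8, where 16.8% of genes did, 5.93% lower and 10.9% higher. The median of protein-coding genes was -0.20 with kallisto counts. No member passed with library totals in place of TMM (Socs1 -0.997) or from deposited TPM (Socs1 -0.77).

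Only Socs1 and Cish kept their sign in all 11 settings tried, which varied the scaling, prior count, count minimum and quantification. Of these settings 8 were planned, and the rest, ratios of kallisto TPM or rescaled TPM, were chosen after seeing the data. In the 8 planned settings Socs3 also stayed below 0 and Socs6 above 0. Socs2 stayed below 0 in the 7 planned settings it entered. Socs1 was lower in replicate 2 throughout, from -1.28 to -0.14, and Cish higher, from 0.26 to 1.30. Socs3 was lower in 10 of 11, down to -1.01, but its kallisto TPM was 37.9 and 38.1, a ratio of 0.01. Kallisto TPM stood apart as a scale: the median of protein-coding genes was 0.77 there, so Socs1 (-0.14) and Socs3 (0.01) lay below that median and Cish (1.30) above it. Socs2 was lower in 9 of the 10 settings it entered, from -1.19 to 0.52, the higher value again from kallisto TPM. The directions of the other 4 genes turned as well: Socs4 ranged from -0.23 to 0.89, Socs5 from -0.06 to 0.87, Socs6 from -0.28 to 0.74 and Socs7 from -0.35 to 0.83. Each of these upper ends was also from kallisto TPM, close to the protein-coding median of 0.77 on that scale. The labels give 1 µg of starting RNA for replicate 1 against 500 ng in replicate 2, with depths of 29400104 and 17789543 gene counts. Starting amount and depth cannot be told apart from any other difference between the libraries.

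Which annotated transcripts held the reads differed widely between members. The deposited tables cover annotated transcripts only, so a read from an unspliced precursor can be counted only where an annotated isoform covers that intron. All annotated transcripts of Socs1 and Socs4 are protein-coding, so their share of 100% was fixed by the annotation and measures nothing. Socs3 had 99.7% and 99.6% of its TPM on its 1 coding transcript, Socs3-201. Cish was at the other end: 28.3% of its TPM in replicate 1 and 26.6% in replicate 2 was on coding transcripts (27.4% ± 1.21), and 20.2% ± 6.81 in kallisto.

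Most Cish reads were assigned to Cish-202, a processed transcript with no coding exon. It is 4697 bases long, and 59.0% of those bases lie outside the exons of the coding transcripts. Its first exon (107296907 to 107299778) runs from within the first exon of Cish-201 through most of the following intron. Cish-202 held 71.7% and 73.4% of the gene's RSEM TPM, with 175 and 158 counts, and 75.0% and 84.6% in kallisto. The coding Cish-201 had 10.7 counts in replicate 1 and 0 in replicate 2, and Cish-204 had 12.8 and 32.2. The Cish level above is therefore mainly a level of Cish-202 as assigned, and whether those reads came from unspliced precursor was not tested.

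**Figure D3:**
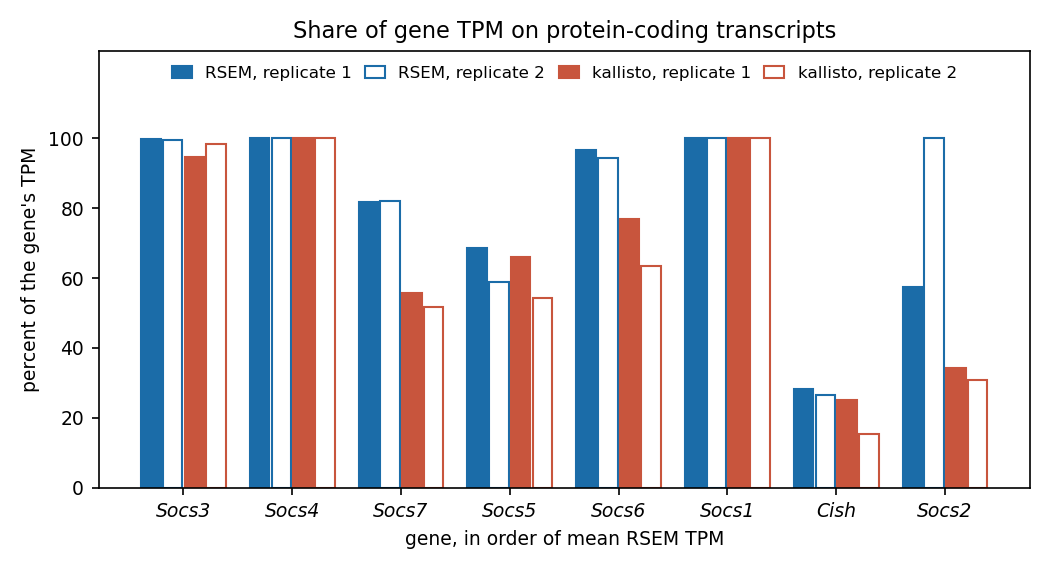
Percent of each gene's TPM on protein-coding transcripts, per library, by RSEM (blue) and kallisto (red); filled bars are replicate 1 and open bars replicate 2. Cish lies below 30% in all 4 bars, and the Socs2 bars disagree. Socs1 and Socs4 lie at 100% because they have no other kind of annotated transcript.

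The remaining members lay between. Socs6 had 96.7% and 94.3% on coding transcripts by RSEM but 77.0% and 63.6% by kallisto, which gave 139 and 182 counts to Socs6-204, a processed transcript that RSEM gave 4.10 and 1.00. Socs7 had 81.6% and 82.1% by RSEM and 55.6% and 51.6% by kallisto, the rest on the short Socs7-202 (506 bases), which held 10.7 and 5.98 RSEM counts. A few counts on so short a transcript weigh heavily in TPM, which is per length. Socs5 had 68.6% and 58.9%, with 31.4% and 41.1% on Socs5-202, a processed transcript of 2019 bases with 87.6% of them outside coding-transcript exons.

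Socs2 was the least settled. RSEM put 57.5% of its TPM on coding transcripts in replicate 1 and 100% in replicate 2, where all 13 counts were on Socs2-214. Kallisto put 34.1% and 30.8% there, and gave 67.2 and 89.8 counts to Socs2-206, a retained-intron isoform with 100% of its bases outside coding-transcript exons, to which RSEM gave 4.42 and 0. Over the 7115 protein-coding genes that have both kinds of transcript and at least 1 TPM in both libraries, the median RSEM share on coding transcripts was 64.3%, and 29.9% of genes lay below 50%. Of the members 5 belong to that set, and 4 of these 5 lay above 50%, all but Cish.

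Genes that overlap the members were assigned few or no counts. Such counts cannot show whether reads from those genes were assigned to a member instead. Cish shares its locus with Gm17040 and Gm17041 on the opposite strand, both with 0 counts in both quantifications. Socs6 overlaps 3 processed pseudogenes, none with more than 4 counts. Whether the counting used strand is not given in the sources used here.

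The partners of the SOCS box were all detected. All 9 genes of the ubiquitin ligase list (elongins Elob and Eloc, cullins Cul5 and Cul2, and their RING, NEDD8 and accessory partners) had at least 1 TPM in each library, and their median was 12.6 TPM. Elongin C gene Eloc had 14.4 and 16.1 TPM (log2 ratio -0.02) and Elob 10.7 and 11.2 (-0.21). The cullin gene Cul5 had 4.36 and 6.79 TPM (0.18). All 9 lay below Socs3 in both libraries. None of the 9 differed by more than 2-fold, where 13.4% of all tested genes did. Their median log2 ratio was 0.19, or -0.15 with kallisto counts. The medians of protein-coding genes were -0.05 with TMM-scaled RSEM counts and -0.20 with kallisto counts. Of 8 other SOCS-box genes 5 reached 1 TPM, led by Wsb1 at 145 ± 23.2 TPM, which was above Socs3 in both libraries (162 and 129).

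Upstream, all 4 JAK kinases and all 7 STATs reached 1 TPM in each library, and the medians were 37.1 and 24.0 TPM. Jak2 had 54.3 and 53.9 TPM and Tyk2 51.0 and 47.1. Stat2 had 172 and 106 TPM, above Socs3 in each library, while Stat4 was lowest at 1.33 and 1.38. All 7 STATs and all 4 JAKs had ratios below 0, with medians of -0.69 and -0.66. Of tested protein-coding genes 54.0% were below 0. Jak3 (-1.06) and Stat2 (-1.04) were past 2-fold, 1 of 4 JAKs and 1 of 7 STATs. Of all tested genes 5.85% were past 2-fold lower and 13.4% in either direction. With library totals Jak3 and Stat2 were at -0.89 and -0.88 and from deposited TPM at -0.57 and -0.70, not past it. Stat4 turned above 0 with library totals, and Stat4, Stat5b and Stat6 did from deposited TPM. From deposited TPM these 2 medians were -0.18 and -0.10, where the median of protein-coding genes was 0.28.

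Cytokines that signal through these kinases ranged from 0 to 70.6 TPM; at least 1 TPM was seen in both libraries for 10 of 16. Ifnb1, which encodes interferon beta, had 27.5 TPM in replicate 1 and 5.02 in replicate 2, from 709 and 69 counts, a log2 ratio of -2.80. Il6, whose receptor subunit gp130 is a target of SOCS3, had 17.0 and 10.7 TPM (-1.05), and Il15 had 70.1 and 37.4 (-1.06). These 3 of 12 tested cytokines were past 2-fold lower, where 5.85% of all tested genes were, and none was past 2-fold higher. In either direction 13.4% of all tested genes passed. Il10, an inducer of SOCS3, had TPM of 4.04 and 4, with a log2 ratio of -0.37 from TMM-scaled counts (interval -0.71 to -0.04).

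At least 1 TPM was seen for 19 of 24 cytokine receptor genes, with a median of 22.2 TPM. Il6st, which encodes gp130, had 10.8 and 14.2 TPM (log2 ratio -0.03). Ifnar1, an interferon receptor gene, had 57.0 and 69.2 TPM (-0.12). Of 20 tested receptors 1 was past 2-fold, Il12rb1 at -1.46 (19.6 and 9.39 TPM). Of all tested genes 5.85% were past 2-fold lower and 13.4% in either direction. The median of the receptors was -0.21, or 0.20 from deposited TPM.

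All 12 STAT target genes were detected, with a median of 34.9 TPM. Irf1, an interferon-induced transcription factor gene, had 208 and 122 TPM (-1.10), and Junb had 89.8 and 56.4 (-1.02). These 2 of 12 were past 2-fold lower, where 5.85% of tested genes were lower and 13.4% passed in either direction. With library totals they were at -0.94 and -0.86 and from deposited TPM at -0.77 and -0.67, not past it. On the TMM scale 11 of 12 had ratios below 0, or 8 of 12 from deposited TPM. Of tested protein-coding genes 54.0% were below 0 on the TMM scale, and their median from deposited TPM was 0.28. Mcl1, the highest of the list by mean RSEM TPM, had 183 and 176 TPM (-0.42). Cish, also a STAT target, lay on the opposite side to Irf1, Junb, Socs1 and Socs3, but its level is mainly that of Cish-202 as assigned. Bcl3 of this list lay above 0 as well, at 0.10, with an interval that includes 0 (-0.06 to 0.27).

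**Figure D4:**
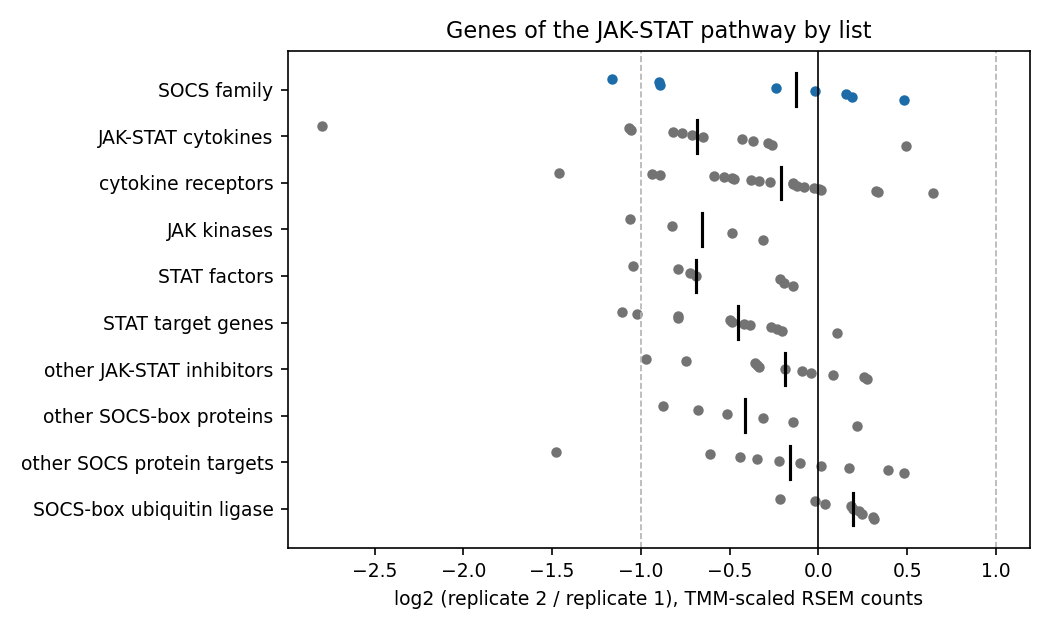
Log2 ratio of replicate 2 over replicate 1 for tested genes of the SOCS family (blue) and 9 pathway lists (grey), from TMM-scaled RSEM counts; black bars are list medians and dashed lines mark 2-fold. With this scaling the STAT and JAK genes all lie below 0, with medians of -0.69 and -0.66, and the ubiquitin ligase genes have a median of 0.19; from deposited TPM 3 STATs turn above 0.

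Other inhibitors of JAK-STAT signalling were all detected. All 11 (PIAS proteins, phosphatases, Sh2b3 and Usp18) reached 1 TPM, with a median at the level of Ptpn2 (10.2 and 9.80 TPM). None of the 11 was past 2-fold by RSEM counts, where 13.4% of all tested genes were. The phosphatase gene Ptprc had 286 and 374 TPM (log2 ratio -0.04). Usp18, an interferon-induced inhibitor at the interferon receptor, had 63.4 and 44.5 TPM (-0.97, or -1.18 and past 2-fold with kallisto counts). Of the 12 other SOCS protein targets 9 reached 1 TPM, led by Rela with 20.8 and 18.1. Nos2 was past 2-fold lower, with 11.3 and 5.17 TPM (-1.48), and it alone of the 10 tested. Kit, a receptor that SOCS6 binds, had 0.52 and 0.47 TPM. Over the 9 lists, 9 of 91 tested genes were past 2-fold, all lower, where 5.85% of all tested genes and 5.01% of protein-coding ones were. In either direction this was 9.89% of list genes, beside 13.4% of all tested genes and 8.75% of protein-coding ones. The lists were chosen with earlier results of these data known, so these shares are not an independent comparison. Of the 9 genes, 3 stayed past 2-fold with library totals and from deposited TPM (Ifnb1, Il12rb1 and Nos2), and 8 with kallisto counts, all but Il15. Kallisto counts called 14 of the 91 (15.4%), all lower, where 5.93% of genes were lower and 16.8% passed in either direction. The added ones were Tyk2 (-1.02), Il27 (-1.57), Csf2ra (-1.09), Il10ra (-1.07), Usp18 (-1.18) and Spsb2 (-1.04). The median of protein-coding genes was -0.20 with kallisto counts.

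The pathway gene nearest to each member in level over the 2 libraries, by Euclidean distance in log2(TPM + 1), was Csf2ra for Socs3 (distance 0.23; 99.8 and 56.3 TPM), Il7r for Socs4 (0.20), Il10 for Socs7 (0.14) and Cul2 for Socs5 (0.02). For Socs6 it was Irak4 (0.04), for Cish Il13ra1 (0.17), for Socs1 Csf2 (0.39) and for Socs2 Kit (0.24). With 2 libraries this measures likeness of level and little else.

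The labelled cell type was met by its markers. All 8 macrophage markers passed 1 TPM in each library (median 105 TPM), with summed TPM of 1493 and 2091. None of 13 markers of other cell types did; their summed TPM was 0.83 and 0.94, and Cd3e, Cd3g, Ly6g, Epcam and Cpa3 were among those at 0 in both. The direction of the macrophage markers depended on the scale. Their median log2 ratio was -0.25 with TMM, with 5 of 8 below 0, and 0.25 from deposited TPM. The medians of protein-coding genes were -0.05 and 0.28. In a bulk sample, fewer cells of a type and less RNA per cell cannot be told apart.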

How the data were processed

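Per the file headers and deposited notes, the authors deposited 2 quantifications of each library on mm10 with GENCODE M21: an RSEM-type table with expected counts, TPM, isoform percent and credibility bounds of TPM, and a kallisto-type table with estimated counts and TPM per transcript, summed here per gene. The aligner is not given in the sources used here, nor are software versions or strandedness. Expected counts were rounded; rows naming no gene (0.766% and 0.272% of counts) were left out. TMM factors (edgeR 4.0.16, R 4.3.3; 0.944 and 1.06) used only the tested genes, those whose mean count was 10 or more. The prior count was 0.5, and counting intervals are exact binomial (Clopper-Pearson, 95%). Ratios were tested on simulated data. Alternatives were library totals, DESeq2 1.42.0 size factors, a prior count of 2, kallisto counts, TPM ratios with a pseudocount of 0.1, other count minimums and rescaled TPM.

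Members and gene lists were chosen with earlier results of these data known. Named were all 8 members. The rule for the other genes admitted the 3 highest and the lowest gene of each list, list genes past 2-fold, and the pathway gene nearest to each member. Some genes that the rule admits are not reported here. Eloc, Elob, Cul5, Il6st, Ifnar1, Il10ra, Ptpn2 and Stat5b stand outside that rule and were chosen after their values were seen.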

Additional observations from a re-analysis of the deposited data

How the results depend on the processing

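Counting error limits Socs2, Socs1 and Cish most, with 13, 85 and 190 counts in replicate 2, and 2 libraries of 1 group limit all statements on spread. No paired analysis was possible because both libraries belong to 1 group. A ratio needs both libraries, so none was computed with a library left out. Leaving out a library moved member levels between 66.0 and 95.95 TPM (Socs3), 6.55 and 8.28 (Socs4), 4.17 and 4.50 (Socs7), 3.26 and 4.64 (Socs5), 3.60 and 4.07 (Socs6), 1.26 and 2.22 (Socs1), 1.12 and 1.85 (Cish), and 0.26 and 0.43 (Socs2); the family median lay between 3.43 and 4.29 TPM and 7 members stayed at 1 TPM or more.

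Mean kallisto TPM was 38.0 for Socs3, 3.65 for Socs4, 3.54 for Socs7, 2.13 for Socs5, 0.883 for Socs1, 0.794 for Cish and 0.982 for Socs2, with a median of 2.83. RSEM TPM rescaled over protein-coding and long non-coding genes was 290.8 for Socs3, 25.4 for Socs4, 15.0 for Socs7, 13.4 for Socs5, 13.3 for Socs6, 6.34 for Socs1, 4.98 for Cish and 1.25 for Socs2, median 13.3. Kallisto TPM rescaled in the same way, chosen after seeing the data, was 219 for Socs3, 19.3 for Socs4, 18.9 for Socs7, 11.3 for Socs5, 21.6 for Socs6, 5.16 for Socs1, 4.05 for Cish and 5.39 for Socs2, median 15.1. At a minimum of 5 TPM 2 members remained.

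The number of genes past 2-fold was 1984, and it was 4016 with kallisto counts (more genes tested), 7212 with no count minimum 928 at a mean count of at least 50 and 5946 by the ratio of kallisto TPM. Members past 2-fold numbered 1, then 0 with library totals, 2 with kallisto counts and 0 with deposited TPM. Ratios chosen after seeing the data gave 2 with rescaled RSEM TPM (Socs1 -1.28, Socs2 -1.19; 14.7% of genes), 1 with kallisto TPM (Cish 1.30; 40.4% of genes) and 0 with rescaled kallisto TPM (11.6% of genes). The share of called genes that were higher in replicate 2 was 56.2% with TMM, 72.5% with library totals, 84.9% with TPM, 64.7% with kallisto counts, 43.2% with no minimum, 45.8% with rescaled RSEM TPM and 98.2% with kallisto TPM. The median of all tested genes was 0.01 with TMM, 0.18 with totals, 0.34 with TPM and 0.84 with kallisto TPM. After rescaling over protein-coding and long non-coding genes, the median was -0.10 with RSEM TPM and 0.04 with kallisto TPM. Those genes held 13.7% of kallisto TPM in replicate 1 and 23.7% in replicate 2. The cause of these shifts was not tested.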
